A study of Saccharomyces cerevisiae with 59 samples.

Results

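The mitochondrial ribosomal protein genes of the yeast Saccharomyces cerevisiae are described here across libraries that were made from different amounts of RNA. A gene was taken in when its standard symbol in the yeast genome annotation was MRPL, MRPS, MRP or RSM followed by digits only. This rule found 67 of the 6420 genes listed for each library, of which 38 encode proteins of the large subunit and 27 proteins of the small subunit. The remaining members are RSM22, which encodes a methyltransferase-like protein associated with the small subunit, and MRP8, which was once assigned to the mitochondrial ribosome by its sequence and is no longer counted as one of its proteins. The RNA was extracted in bulk from spheroplasts, which are cells without their wall, of the haploid strain S288C grown from 1 clone and kept under amino acid starvation (AAS). Of this RNA, 5, 10 and 20 pg went into 10 libraries each, 100 pg into 7, 1 ng into 8 and 10 ng into 9, and all of them share the strain and the starvation. The labels of 5 further libraries, named H6P11, H6P12, H6P14, H6P15 and H6P16, give no amount, and they are described one by one. Whether libraries of 1 amount came from separate cultures is not stated in the labels, so that each p-value measures the spread between libraries, which may be technical.

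The mitochondrial ribosome makes the few proteins that are encoded in mitochondrial DNA, which are mostly core subunits of the respiratory chain and of the ATP synthase. In yeast, its protein shell is encoded almost wholly in the nucleus, made in the cytosol and imported, while its rRNAs come from mitochondrial DNA. The large subunit joins amino acids and holds the exit tunnel for the new protein, and the small subunit decodes the mRNA. Many of the proteins have a counterpart in the bacterial ribosome, whereas others are found in mitochondria only.

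The gene total of the 54 grouped libraries lay between 290434 and 2452562 counts, with a median of 1503788 counts at 5 pg and of 923503 counts at 10 ng. Levels are given as CPM, which are counts scaled to a common gene total, and 5 counts or more were taken as detection of a gene. The markers of alpha cells, which is the mating type of S288C, held 208001 counts over all 54 libraries, against 564 for those of the opposite mating type. Libraries numbered 1 to 4 and libraries numbered above 4 differed in composition at some amounts, and the labels do not call these numbers a batch. Values for the 2 number ranges are therefore given beside the results they touch, and what sets them apart was not tested. The coding sequences of the 67 genes were short, with a median of 699 nt (213 to 1887 nt) against 1200 nt over the 5980 genes with a coding length, and only MRPL44 has an intron within its coding sequence.

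Fewer of the 67 genes were detected at low than at high input, with medians that rose at each step except between 20 and 100 pg. At 5 pg, the number detected per library was 2 at the lowest, 8 at the median and 34 at the highest. It was 6, 17 and 28 at 10 pg, 14, 25 and 45 at 20 pg, and 16, 21 and 51 at 100 pg. At 1 ng it was 21, 41 and 45, and at 10 ng it was 20, 47 and 57. The means were 9.7 ± 9.13 genes at 5 pg (SD, n = 10) and 45.1 ± 10.4 genes at 10 ng (SD, n = 9), and the ranges of these amounts overlapped only through replicate 2 at 5 pg with 34 genes and replicate 2 at 10 ng with 20 genes, which is the shallowest library. Leaving out replicate 2 of each amount gave means of 7 genes at 5 pg and 48.2 genes at 10 ng.

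**Figure D1:**
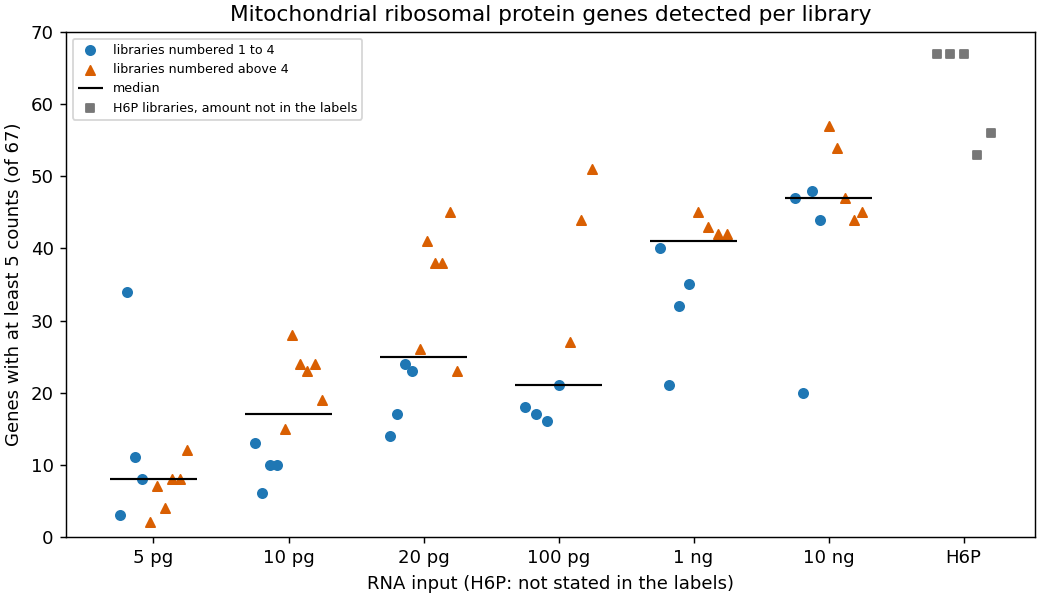
Number of the 67 mitochondrial ribosomal protein genes with at least 5 counts in each library (vertical axis) by RNA input (horizontal axis). Each point is 1 library, circles are libraries numbered 1 to 4, triangles are libraries numbered above 4, grey squares are the H6P libraries without an amount, and the line is the median, which is 8 genes at 5 pg and 47 genes at 10 ng.

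The steps between neighbouring amounts were not even and moved with the library numbers. At 20 pg, libraries numbered 1 to 4 had 14 to 24 of the genes and those numbered above 4 had 23 to 45, while at 100 pg these were 16 to 21 for numbers 1 to 4 and 27 to 51 for numbers above 4. The ranges overlapped slightly at 20 pg and not at 100 pg. Numbers 1 to 4 also lay below the others without overlap at 10 pg (6 to 13 against 15 to 28) and at 1 ng (21 to 40 against 42 to 45), while the ranges overlapped more at 5 pg (3 to 34 against 2 to 12) and at 10 ng (20 to 48 against 44 to 57). As a share, 14.5% of the 67 genes were detected in a mean library at 5 pg, against 23.4% of all listed genes. At 10 ng the order was the other way round, with 67.3% of the 67 genes and 44.5% of all genes. The counts also moved with depth. At 10 pg, numbers 1 to 4 had 410711 to 954088 gene counts and numbers above 4 had 1383589 to 2452562. When every library was thinned to the same depth, just under the total of the shallowest, the mean number of genes was 6 at 5 pg, 12.7 at 10 pg, 18.8 at 20 pg, 16.5 at 100 pg, 18.5 at 1 ng and 26 at 10 ng. At this depth, numbers 1 to 4 and numbers above 4 overlapped at 1 ng (10.35 to 18.55 against 15.95 to 26.4 genes). They did not overlap at 10 pg (5.6 to 10 against 11.15 to 22.1) or at 20 pg (8.55 to 12.15 against 18.5 to 28.2). The same held at 100 pg (6.75 to 9.4 against 15.1 to 38.4).

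At low input, different libraries detected different members. Between 5 pg libraries, the genes detected in both of a pair made up a median of 5.56% of the genes detected in either (0% to 37.5% over 45 pairs). The same share was 19.0% at 10 pg, 33.3% at 20 pg, 40.6% at 100 pg, 63.4% at 1 ng and 77.1% at 10 ng. None of the 67 genes was detected in all libraries at 5 pg or at 10 pg, whereas 1 was at 20 pg, 4 were at 100 pg, 14 at 1 ng and 19 at 10 ng. Still, 49 of the genes were detected in at least 1 of the 10 libraries at 5 pg, of which 19 were in exactly 1. At 10 ng, 62 genes were detected in at least 1 of the 9 libraries.

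**Figure D2:**
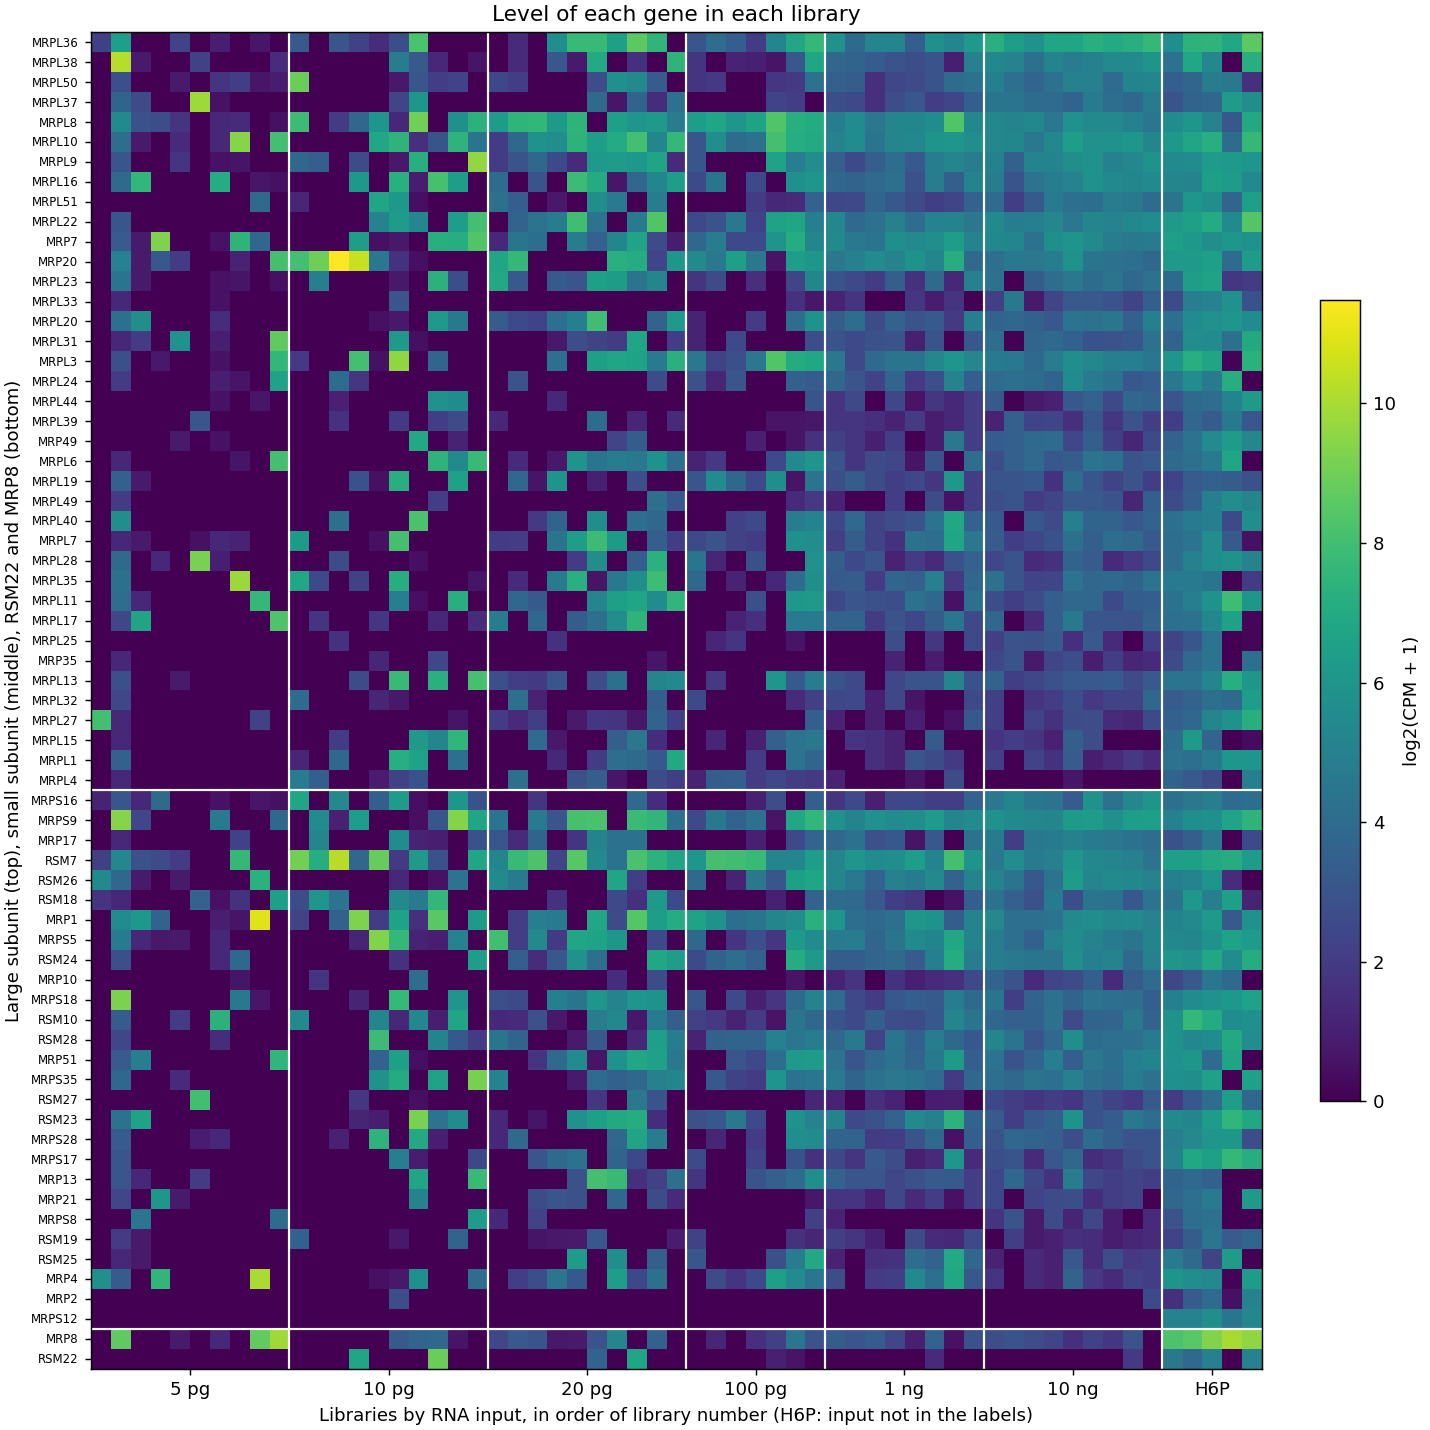
Level of each of the 67 genes (rows) in each library (columns, by RNA input and library number), as log2(CPM + 1). Rows are ordered within the large subunit, the small subunit and the pair RSM22 and MRP8 by their level per kb at 10 ng; the 5 pg columns hold scattered single high cells, and the 10 ng columns are filled for most genes and alike.

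The summed level of the 67 genes did not follow the number detected. It was 1651 ± 1408 CPM at 5 pg (SD, n = 10), 2557 ± 943 CPM at 10 pg, 1786 ± 976 CPM at 20 pg, 1284 ± 897 CPM at 100 pg, 1027 ± 623 CPM at 1 ng and 1153 ± 263 CPM at 10 ng. The sum ranged from 82.8 to 3816 CPM at 5 pg and from 739.8 to 1585 CPM at 10 ng, so that the 5 pg range enclosed that of 10 ng. At 20 pg and at 100 pg the sum split by library number. Libraries numbered 1 to 4 had 532 to 859 CPM at 20 pg and 500.4 to 742 CPM at 100 pg, and those numbered above 4 had 1663 to 3283 CPM at 20 pg and 1689 to 2693 CPM at 100 pg. These ranges did not overlap in CPM, but they did with TMM factors, by which numbers 1 to 4 had 669 to 1134 CPM and numbers above 4 had 851 to 1814 CPM at 20 pg, and 854 to 1172 CPM and 1165 to 1477 CPM at 100 pg.

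Few genes carried the sum at low input. The 3 highest members held a median of 89.0% of the sum at 5 pg (53.9% to 98.5%) and of 20.7% at 10 ng (17.4% to 25.8%). The highest member also changed with the library. It was MRPL27 in replicate 1 at 5 pg with 269 CPM, MRPL37 in replicate 6 with 886 CPM, MRPL35 in replicate 8 with 874 CPM and MRP1 in replicate 9 with 1931 CPM, and the 10 libraries at 5 pg had 10 different highest members. At 10 ng it was MRPL36 in all 9 libraries. MRP20, a protein at the exit of the tunnel, was the highest member in replicates 2, 3 and 4 at 10 pg, with 487, 2872 and 1453 CPM, against a mean of 24.6 ± 13.0 CPM at 10 ng (SD, n = 9); it was singled out after its values were seen.

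**Figure D3:**
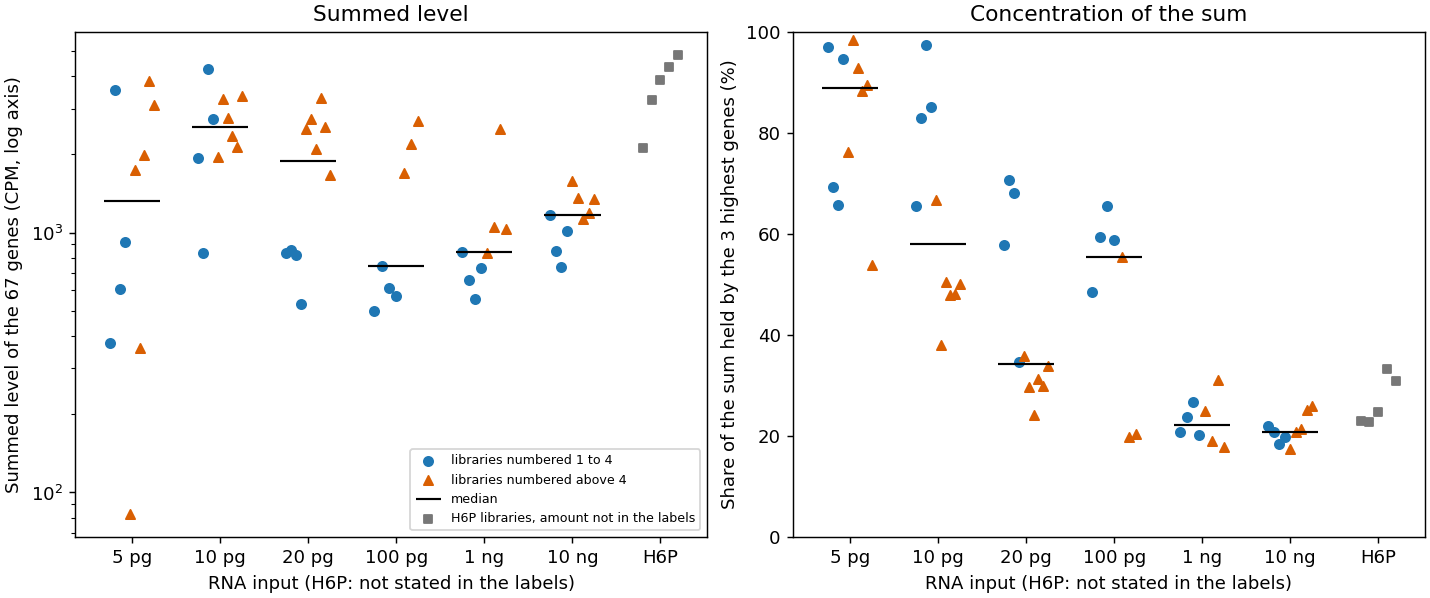
Left, summed level of the 67 genes in each library (CPM, log axis) by RNA input; right, the share of that sum held by the 3 highest genes of the library (%). Symbols are as in the plot of genes detected per library and lines are medians; the sums of the amounts overlap, whereas the share of the 3 highest genes has a median of 89.0% at 5 pg and of 20.7% at 10 ng.

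Between the subunits, the large one held more of the counts in most libraries. It also has more members, 38 against 27, so that these shares do not compare the level per gene. Of the counts that fell in either subunit, large-subunit genes had a median of 70.4% at 5 pg, but between 6.90% and 87.8% in single libraries. The median was 63.0% at 10 pg, 58.7% at 20 pg, 53.0% at 100 pg and 54% at 1 ng. At 10 ng it was 62.1% with a range of only 59% to 63.0%, and the large subunit was above the small one in 9 of 9 libraries. The ranges of all other amounts enclosed or overlapped that of 10 ng.

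The levels at 10 ng differed widely between members. Per kb of coding sequence, MRPL36 was the highest with 238 CPM per kb, followed by MRPL38 with 89.0, MRPS16 with 87.3, MRPS9 with 73.9, MRPL50 with 60.5 and MRPL37 with 57.9 CPM per kb. In CPM without the length, MRPL36 had 127 ± 42.4, MRPL38 had 37.1 ± 11.5, MRPS16 had 32 ± 18.0 and MRPS9 had 61.9 ± 19.9 (SD, n = 9). By this measure MRPL10 (mean 49.1 CPM) and MRPL9 (38.7 CPM) also had higher means than MRPL38, so that the order depends on the division by length. The paper reports that read coverage declined toward the 5' end. Per kb, MRPL36 lay above MRPL38 by more than the spread of either, whereas the neighbours from MRPL38 to MRPL37 differed by less than their spread. MRPL36 (YBR122C, chrII:483970-484503, minus strand, R64) is the mitochondrial form of bacterial L31, a protein that bridges the subunits, MRPL38 is that of L14, MRPS16 and MRPS9 are those of S16 and S9, MRPL50 is that of L9, and MRPL37 belongs to the mitochondria-specific proteins. In bulk RNA, fewer cells with a transcript and less of it per cell cannot be told apart.

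The level at 10 ng and the detection at low input went together only in part. Across the 67 members, Spearman's rho between the mean CPM at 10 ng and the number of libraries with the gene was 0.55 at 5 pg, 0.60 at 10 pg, 0.62 at 20 pg, 0.66 at 100 pg and 0.86 at 1 ng. These correlations are across genes that share the libraries and are given as a description. For the 22 genes with the highest level at 10 ng (19.8 to 127 CPM), 22.3% of all gene and library pairs passed 5 counts at 5 pg, 40.9% at 10 pg, 60.9% at 20 pg, 70.8% at 100 pg, 90.9% at 1 ng and 97.5% at 10 ng. For the 22 with the lowest level (0 to 6.55 CPM) it was 8.18% at 5 pg and 23.7% at 10 ng, with no more than 24.5% at any amount. The genes were sorted by their level in the same 10 ng libraries, so that the shares at 10 ng largely follow from the sorting.

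RSM7 (YJR113C, chrX:638232-638975, minus strand), the mitochondrial S7 protein of the small-subunit head, was the most widely detected member, in 46 of the 54 libraries. It was singled out after its values were seen, and it also passed the test at 1 ng. Its median level was 3.36 CPM at 5 pg (0 to 199), 92.5 CPM at 10 pg (0 to 1225), 137 CPM at 20 pg (4.22 to 366), 84.6 CPM at 100 pg (37.0 to 277), 55.8 CPM at 1 ng (35.8 to 273) and 31.4 CPM at 10 ng (19.9 to 62.2). It was detected in all libraries of 20 pg, 100 pg, 1 ng and 10 ng, and the median was highest at 20 pg. MRP1, MRPL8 and MRPL10 followed with 42 libraries each.

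At the other end, 17 members were detected in at most 10 of the 54 libraries. They were MRPS12 in none, MRP2 in 1, MRP35 in 2, MRPL25, RSM19 and RSM22 in 4, MRPL32, MRP10, MRPS8 and RSM27 in 7, MRPL39 and MRPL33 in 8, MRP49, MRPL44 and MRPL49 in 9, and MRPL27 and MRP21 in 10. Except for RSM22, which is the longest member with 1887 nt, all of these had coding sequences of at most 552 nt. No member was detected in at least 8 of the 10 libraries at 5 pg. RSM28 (YDR494W, chrIV:1436930-1438015), a small-subunit protein, was the only member with 5 counts in no library at 5 pg and in all 9 libraries at 10 ng.

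The first question of the design was how the profile from 5 pg differed from that of 10 ng. Of the 67 genes, 56 had at least 5 counts in at least 20% of these 19 libraries and were tested together with all other genes by edgeR's quasi-likelihood test. At a Benjamini-Hochberg adjusted p of at most 0.05, 14 of the 56 were lower and 3 higher at 5 pg, while 30.6% of all 3492 genes tested were called, 7.65% lower and 23% higher. Fold changes are log2 ratios of 5 pg over 10 ng after subtraction of the median over all genes tested, which was 1.64 on the TMM scale, and the standard error (SE) is that of the ratio before the subtraction. The median of the 56 was -1.98, and 36 of them lay below the median of all genes. The all-gene share depends on the scaling. By the library total alone, 177 genes were higher and 332 lower, against 803 higher and 267 lower with TMM, and of the 67 genes 1 was then higher and 17 were lower. Within the libraries numbered 1 to 4, none of 51 members and none of all 3305 genes was called, and within those above 4, 20 of 52 members were lower and 0 higher while 18.7% of all 3390 genes were called.

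MRPL22 (YNL177C, chrXIV:303686-304615, minus strand), the mitochondrial form of L22, a protein that lines the exit tunnel, had the largest difference. It was at 0 in 9 of the 10 libraries at 5 pg and at 7.46 CPM in the other one, against 22.9 CPM at the lowest, 37.1 CPM at the median and 46.5 CPM at the highest at 10 ng. The groups did not overlap, and the log2 ratio was -6.78 (SE 1.21, edgeR adjusted p = 0.0065). RSM28 was at 0 CPM at the lowest and at the median and at 4.48 CPM at the highest at 5 pg, against 7.05, 17.6 and 49.5 CPM at 10 ng, which gave a log2 ratio of -5.74 (SE 1.06, edgeR adjusted p = 0.0095). MRP10, a small cysteine-rich protein of the small subunit, had a single count over the 10 libraries at 5 pg, against 1.57, 6.89 and 14.9 CPM at 10 ng, with a log2 ratio of -6.33 (SE 0.92, edgeR adjusted p = 0.0023). Both RSM28 and MRP10 were thus lower in every library at 5 pg than in any at 10 ng.

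The other members that fell at 5 pg were MRPL33, MRP49, MRP17, MRPL44, MRPL9, MRPL49, MRPL50, MRPS35, MRPL7, MRPL13 and MRPS28, with log2 fold changes between -5.76 and -4.15. They include the mitochondrial forms of L30 (MRPL33), L3 (MRPL9), L21 (MRPL49), L9 (MRPL50), L5 (MRPL7), S6 (MRP17) and S15 (MRPS28). In all, 9 of the 32 tested large-subunit genes and 5 of the 23 tested small-subunit genes were lower. For 8 of the 14, the ranges of 5 pg and 10 ng did not overlap, as for 44.2% of all 267 genes called lower. Of the 14, 8 reached 5 counts in no library at 5 pg and 5 in exactly 1, so that these passed the filter on low counts through 10 ng, where they are high, and could hardly have been called higher. With a filter of 5 counts in at least 50% of the libraries, 27 members were tested and 2 were lower and 0 higher, while 2.98% of all 2147 genes were lower and 12.7% higher. The call for MRPS35 (adjusted p = 0.049) was lost in 13 of the 19 fits that left out 1 library.

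The 3 members called higher at 5 pg were high in a few libraries and at or near 0 in the others. MRP4 (YHL004W, chrVIII:99219-100403), the mitochondrial S2 protein, had 1060, 188, 53.5 and 8.95 CPM in 4 libraries at 5 pg and was at 0 in the other 6, against 0, 2.33 and 11.4 CPM at 10 ng (lowest, median and highest), with a log2 ratio of 4.88 (SE 1.92, edgeR adjusted p = 0.016). MRP8 had 936, 429 and 415 CPM in 3 libraries at 5 pg and a median of 0.39 CPM, against a median of 4.33 CPM and a highest value of 6.89 CPM at 10 ng, and its log2 ratio was 3.90 (SE 1.78, edgeR adjusted p = 0.024). MRPL27, a mitochondria-specific protein of the large subunit, was at 269 CPM in replicate 1 at 5 pg and at a median of 0 CPM, against a median of 3.49 CPM at 10 ng, and its log2 ratio was 2.66 (SE 1.67, edgeR adjusted p = 0.049). For all 3, the median was lower at 5 pg although the fitted mean was higher, and the ranges overlapped. MRP4 and MRP8 lost the call without replicate 9 or replicate 10 of 10 ng (adjusted p up to 0.050 for MRP4 and 0.053 for MRP8), and then none of the 67 genes was called higher. With the replicate number as a block, MRP4, MRP8 and MRPL27 all lost the call, while 0.55% of all 3455 genes were higher, and with the library total only, MRP4 and MRPL27 did. The call for MRPL27 was lost in 12 of the 19 fits that left out 1 library, among them all 9 without a 10 ng library, and without replicate 1 of 5 pg its log2 fold change was -3.18 (edgeR adjusted p = 0.16).

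The same question was asked of 1 ng against 10 ng, where the libraries were far more alike. Again 56 members were tested, of which 11 were lower and 3 higher at 1 ng by edgeR at an adjusted p of at most 0.05, while 36.7% of all 3927 genes tested were called, 15.9% lower and 20.8% higher. The median of the 56 was -0.73 relative to the median of all genes (0.23 before the subtraction), and 45 of the 56 were below it. All 9 called genes of the large subunit, among 34 tested, were lower, whereas the small subunit had 2 lower and 3 higher among 21 tested. Within the libraries numbered 1 to 4, 7 of 48 members were lower and 0 higher while 26% of all 3347 genes were called, and within those numbered above 4 none of 58 members was called while 1.81% of all 4598 genes were. In 1 fit of all 6 amounts, none of the members and none of all 3927 genes was called for 1 ng against 10 ng.

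MRPS16 (YPL013C, chrXVI:528985-529350, minus strand) fell most. It had 1.03, 3.94 and 11.3 CPM at 1 ng (lowest, median and highest of 8), against 8.89, 23.3 and 59.8 CPM at 10 ng, which is a log2 ratio of -3.41 (SE 0.48, edgeR adjusted p = 1.7e-04). The groups overlapped only slightly. MRPL36 had 9.81, 36.7 and 72.5 CPM at 1 ng, against 57.2, 131 and 199 CPM at 10 ng, which is a log2 ratio of -2.10 (SE 0.34, edgeR adjusted p = 6.5e-04). MRPL37 (YBR268W, chrII:741299-741616) had 2.05, 5.16 and 9.66 CPM at 1 ng, against 11.4, 16.8 and 26.6 CPM at 10 ng, which is a log2 ratio of -2.28 (SE 0.39, edgeR adjusted p = 9.4e-04). It was the only one of the 14 called members whose ranges did not overlap, which they did not for 9.36% of all 1442 genes called. The remaining members that fell were MRPL33, MRP10, MRPL38, MRPL49, MRPL50, MRPL51, MRPL9 and MRPL16, with log2 fold changes between -3.03 and -1.37. Of all 11, MRP10 reached 5 counts in no library at 1 ng and MRPL49 in exactly 1, while 9 did in more. MRP10 and MRPL49 thus passed the filter on low counts through 10 ng, where they are high, and could hardly have been called higher. The call for MRPL16 was lost in 5 of the 17 fits that left out 1 library (adjusted p up to 0.066) and with scaling by the library total only. MRPL51 overlaps the gene YPR099C on the other strand over 323 nt, and the counts do not separate the 2 strands.

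**Figure D4:**
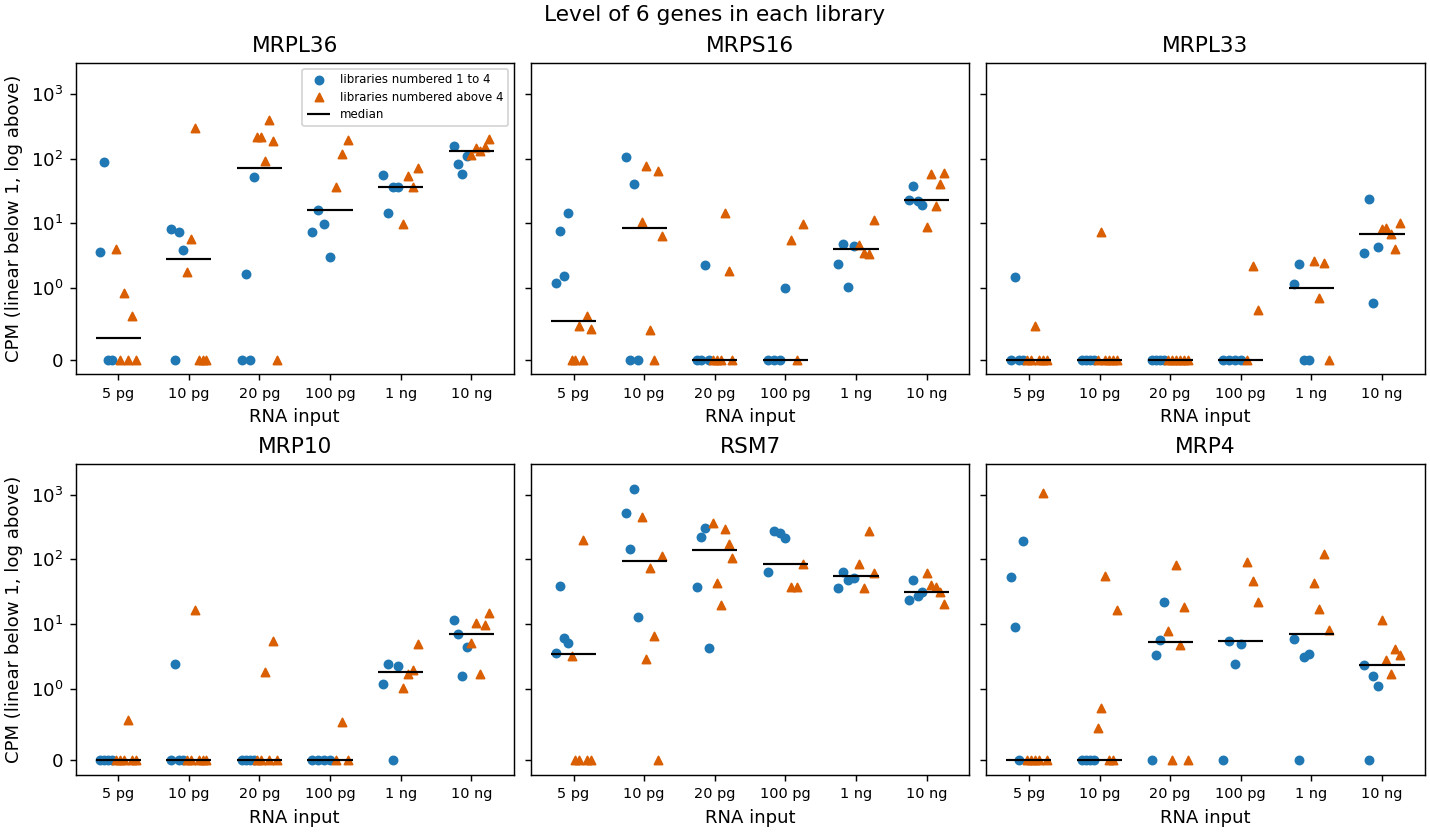
Level of MRPL36, MRPS16, MRPL33, MRP10, RSM7 and MRP4 in each library (CPM, linear below 1 and logarithmic above) by RNA input. Points are libraries (circles numbered 1 to 4, triangles numbered above 4) and lines are medians; the first 4 genes have lower medians at 1 ng than at 10 ng, while RSM7 has a median of 137 CPM at 20 pg and of 31.4 CPM at 10 ng.

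The members that rose at 1 ng all belong to the small subunit. MRP4 had 0, 6.95 and 119 CPM at 1 ng, against 0, 2.33 and 11.4 CPM at 10 ng, with a log2 ratio of 2.16 (SE 0.65, edgeR adjusted p = 0.0082). RSM25, a mitochondria-specific protein, had 0, 6.66 and 128 CPM at 1 ng, against 0, 1.86 and 7.62 CPM at 10 ng, with a log2 ratio of 2.03 (SE 0.72, edgeR adjusted p = 0.019). MRP4 and RSM25 reached 5 counts in more libraries at 1 ng than at 10 ng. They thus passed the filter on low counts through 1 ng, where they are high, and could hardly have been called lower. RSM7 was higher by 0.59 on the log2 scale (SE 0.30, edgeR adjusted p = 0.035). Replicate 9 of 1 ng was the highest library for all 3. Without it, 15 members were lower and MRP4 was the only one higher, while 16.2% of all 3731 genes were lower and 19.3% higher. RSM25 lost its call in this fit, and RSM7 lost it here and without replicate 1, 9 or 10 of 10 ng (adjusted p up to 0.081). With the replicate number as a block, RSM25 and RSM7 were not called either.

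In both comparisons with 10 ng, which share the 10 ng libraries, MRP10, MRPL33, MRPL49, MRPL50 and MRPL9 were called lower and MRP4 was called higher. MRP10, MRPL33 and MRPL49 passed the filter on low counts through 10 ng both times, and MRP4 through the lower amount. The calls in both are therefore no independent support for each other. For MRP4, the median at 5 pg was below that at 10 ng. MRPL33 and MRP10 have the shortest coding sequences among the members called. They are shown because 8 of the 11 members that fell at 1 ng are no longer than 500 nt, as 1 uninterrupted coding exon each, read from the R64 genome of RefSeq on the plus strand at chrXIII:841942-842202 (MRPL33, YMR286W, 261 nt, 86 amino acids) and chrIV:372248-372535 (MRP10, YDL045W-A, 95 amino acids), with the start and stop codons in capitals.
MRPL33: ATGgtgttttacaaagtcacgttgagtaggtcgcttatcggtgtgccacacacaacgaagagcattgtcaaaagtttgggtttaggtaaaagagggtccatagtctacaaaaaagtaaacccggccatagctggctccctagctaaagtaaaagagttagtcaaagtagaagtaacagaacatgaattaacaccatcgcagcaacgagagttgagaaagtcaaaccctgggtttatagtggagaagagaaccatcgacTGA
MRP10: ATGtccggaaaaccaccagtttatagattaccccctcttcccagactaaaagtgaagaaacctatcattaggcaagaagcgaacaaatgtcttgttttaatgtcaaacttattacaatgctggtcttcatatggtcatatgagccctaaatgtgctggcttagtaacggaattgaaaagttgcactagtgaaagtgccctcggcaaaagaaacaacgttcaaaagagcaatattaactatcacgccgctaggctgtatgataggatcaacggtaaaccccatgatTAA
MRPL33 was at 0 in 8 of 10 libraries at 5 pg, in 9 of 10 at 10 pg, in all 10 at 20 pg, in 5 of 7 at 100 pg and in 3 of 8 at 1 ng, and had 0.78, 6.70 and 24.1 CPM at 10 ng. At 20 pg, 0 counts in 13695388 pooled gene counts allow up to 0.219 CPM, counting error only. MRP10 was at 0 in 9 of 10 libraries at 5 pg, in 8 of 10 at 10 pg and at 20 pg, in 6 of 7 at 100 pg and in 1 of 8 at 1 ng, and in none at 10 ng. Both short genes thus had counts in most libraries only at 1 ng and at 10 ng.

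Coding length and fold change moved together at 1 ng. Spearman's rho between them was 0.67 across the 56 members and 0.75 across the 3924 genes tested with a length, given as a description across genes. Of the 19 members of at most 500 nt, 8 were lower and none higher, with a median log2 fold change of -1.74, against a median of -1.53 over all 446 genes of that length, of which 59.4% were lower. Of the 28 members from 501 to 1000 nt, 3 were lower and 2 higher, with a median of -0.57 against -0.72 over 1077 genes, of which 27.9% were lower and 3.53% higher. The 9 members above 1000 nt had a median of -0.47, against 0.51 over 2401 genes, and 1 of them was higher and none lower, while 32.1% of those genes were higher and 2.54% lower. The 11 members that fell had a median coding length of 420 nt and the 3 that rose one of 795 nt. The class bounds were chosen after the values were seen.

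**Figure D5:**
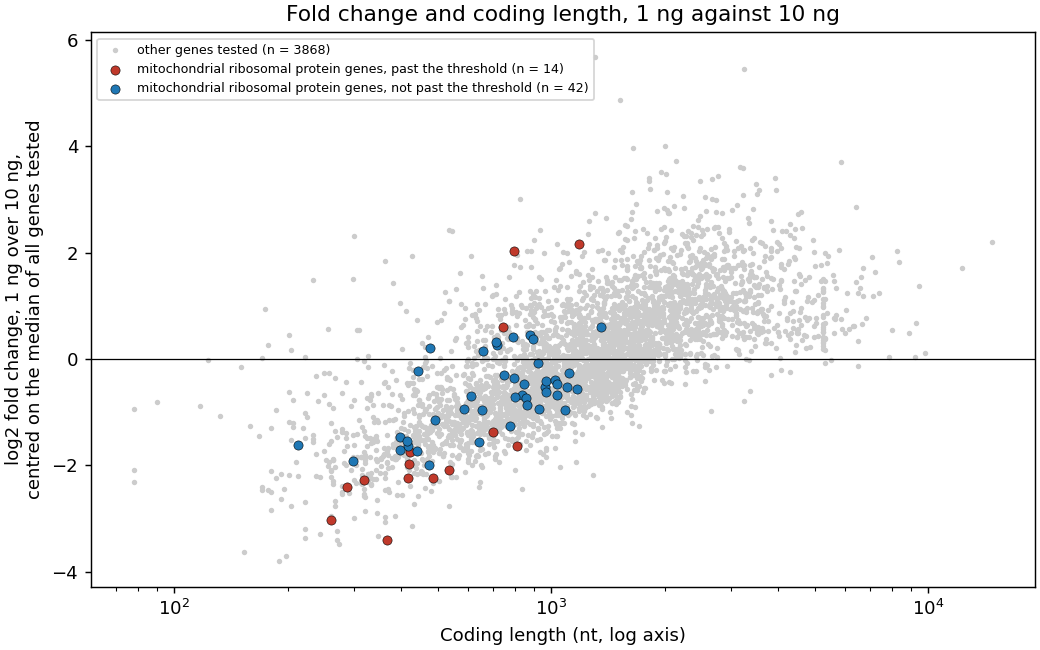
Log2 fold change of 1 ng over 10 ng, centred on the median of all genes tested (vertical axis), against coding length (nt, log axis). Grey points are the other genes tested, red points the 14 mitochondrial ribosomal protein genes past the threshold and blue points the other 42; shorter members lie lower, as do shorter genes in general.

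At 5 pg against 10 ng the relation was weaker, with a rho of 0.16 across the members and 0.45 across 3489 genes. The 20 members of at most 500 nt had a median of -3.51, the 27 from 501 to 1000 nt one of -1.05 and the 9 longer ones one of -0.77, against -1.77, -1.04 and 0.91 over all genes of the same classes. The 14 members that fell had a median coding length of 641 nt. At 100 pg against 1 ng, rho was 0.37 both across 50 members and across all genes, while at 20 pg against 100 pg it was -0.47 across 51 members and 0.04 across all genes.

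Between the other neighbouring amounts, no member passed the test. At 5 pg against 10 pg, 36 members were tested with a median log2 fold change of -1.72 and 0% of all genes were called. Of the 36, 15 had an unadjusted p under 0.05, 12 of them lower and 3 higher, compared with 15.7% of all 3443 genes, and DESeq2 called 2 of them among 285 genes. At 10 pg against 20 pg, 50 members had a median of 0.07, 4 (8%) had an unadjusted p under 0.05 next to 7.84% of all genes, 0.0456% of all genes were called by edgeR, and DESeq2 called 1 member among 125 genes. At 20 pg against 100 pg, 51 members had a median of 0.05, 1 (1.96%) had an unadjusted p under 0.05 next to 3.89% of all genes, and neither edgeR (0% of all genes) nor DESeq2 called any member. At 100 pg against 1 ng, 6.87% of all genes were called, 3.43% lower and 3.45% higher, and none of the 50 members was, by edgeR or by DESeq2. Of these 50, 7 (14%) had an unadjusted p under 0.05, below the 21.2% of all genes, and the median was -0.32. Within the libraries numbered 1 to 4 of that pair, 7 of 43 members were called, 3 lower and 4 higher, while 28.2% of all 3431 genes were called, and within those above 4 none of all 4946 genes was.

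Other genes of mitochondrial translation were tested in the same fits. Of the mitoribosomal proteins under other names, 9 were tested at 1 ng, of which MNP1 (the L7/L12 stalk protein, log2 fold change -1.18) and SWS2 (the S13 protein, -1.46) fell, and EHD3, a hydrolase found with the small subunit, rose (1.28). At 5 pg only EHD3 was called (3.12). Of the translation factors and activators, 17 were tested at 5 pg and 20 at 1 ng. CBP3, an assembly factor for cytochrome b, fell at 5 pg (-5.71), OXA1, the insertase of the inner membrane, rose at 5 pg (6.01), and MDM38, which binds ribosomes to that membrane, rose at 1 ng (0.65). MSS51, the translational activator of COX1, rose at 100 pg against 1 ng (1.52). Of the mitochondrial aminoacyl-tRNA synthetases, 5 were tested at 5 pg and 9 at 1 ng, of which MSD1, for aspartate, rose at 5 pg (3.81) and ISM1, for isoleucine, at 1 ng (2.80). Of all genes tested, 7.65% were lower and 23% higher at 5 pg, 15.9% and 20.8% at 1 ng, and 3.43% and 3.45% at 100 pg against 1 ng. None of the 803 genes called higher at 5 pg had a range apart from that of 10 ng, so the ranges of EHD3, OXA1 and MSD1 overlapped. Values of single libraries and fits that left out 1 library are not given for these lists. The medians of the 3 lists were -0.62, 0.08 and 0.69 at 5 pg and -0.31, 0.24 and 0.64 at 1 ng. The difference between these lists and the 67 genes was not tested.

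The cytosolic ribosomal protein genes, which form another large and short class, had a median log2 fold change of -2.44 at 5 pg against 10 ng (135 tested, 7 lower, 1 higher). The 7 are 5.19% of those tested, while 7.65% of all genes were lower and 23% higher. At 1 ng against 10 ng, the median was -1.54 (135 tested, 115 lower, 0 higher). The 115 are 85.2% of those tested, while 15.9% of all genes were lower and 20.8% higher. At 100 pg against 1 ng, 85 of 135 were lower with a median of -2.35. None of the 50 mitochondrial ribosomal protein genes tested was called there, and 6.87% of all genes were. Within libraries numbered 1 to 4 of that pair, 7 of 43 members were called. The difference between these classes was not tested. The mitochondrial rRNAs had few counts, with 0 counts for 15S rRNA and 123 counts for 21S rRNA over all 54 libraries, and VAR1, the ribosomal protein gene of the mitochondrial genome, was not analysed here.

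The members that are not structural proteins of a subunit were both scattered over the libraries. RSM22 (YKL155C, chrXI:159456-161342, minus strand) had 0 counts in all 10 libraries at 5 pg, which allows up to 0.191 CPM, and was detected in 2 libraries at 10 pg, with up to 476 CPM, and in 2 at 20 pg, with up to 108 CPM. It was detected in none at 100 pg, 1 ng and 10 ng, where its highest level was 2.70 CPM. MRP8 (YKL142W, chrXI:178515-179174) was detected in 3 of 10, 3 of 10, 5 of 10, 3 of 7, 3 of 8 and 3 of 9 libraries from 5 pg to 10 ng, and its mean was 178 ± 319 CPM at 5 pg and 4.16 ± 2.34 CPM at 10 ng (SD).

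MRPS12 (YNR036C, chrXIV:694361-694822, minus strand), the mitochondrial S12 protein of the decoding centre, had 0 counts in all 54 grouped libraries. With 69986280 gene counts in all, this allows a level of up to 0.0429 CPM, counting error only. The H6P libraries did hold MRPS12 counts. Each of them was deeper, with 6407797 to 14337575 gene counts, but together they held 55149338, fewer than the grouped libraries. What sets them apart was not tested. In these 5 libraries, all 67 genes were detected in H6P11, H6P12 and H6P14, 53 in H6P15 and 56 in H6P16. After thinning to the same depth as above, the numbers were 40, 50, 55.2, 39.7 and 44 genes in the same order of libraries, against 18.6 to 32 genes in the 9 libraries at 10 ng.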

How the data were processed

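Poly(A) RNA was reverse transcribed with oligo-dT, amplified by PCR without molecular identifiers and sequenced with ERCC spike-ins. The deposited values are whole-number counts of reads per gene made by the authors. The submitters' processing notes name STAR 2.5.2, HTSeq, RSEM 1.2.31 and the R64 genome, and no role is assigned to them here. The kit does not mark strand. The 5 summary lines of each of the 59 files, 2.84% to 12.1% of the counts in the grouped libraries, and the 92 spike-ins entered neither gene totals nor tests. Of the listed genes, 6061 matched the RefSeq annotation.

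Counts were scaled by TMM and tested by the quasi-likelihood test of edgeR 4.0.16 (R 4.3.3) for each pair of amounts on genes that reached 5 counts in 20% or more of the libraries compared, with Benjamini-Hochberg adjustment over all of these genes and a threshold of 0.05. Fold changes are lower over higher input, centred on the median gene after the test. The SE is the absolute log2 ratio divided by the square root of F. The scripts were tested on simulated data. Named are members past the threshold (the 12 of largest change per direction), the 6 highest per kb at 10 ng, members detected in at most 10 libraries or in none at 5 pg but all at 10 ng, and RSM22 and MRP8; MRPL13, MRPS28, and RSM7, MRP1, MRPL8, MRPL10, MRP20 and the highest members of single libraries as such, were added after their values were seen. The members and lists were chosen with earlier results of these data known. Alternatives were DESeq2 1.42.0, other scalings and filters, a replicate block, 1 fit of all amounts, and leaving out libraries. The H6P libraries were tested in no comparison because their labels give no amount.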

Additional observations from a re-analysis of the deposited data

Results flagged for a closer look

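Dixon's criterion was applied in groups of 4 to 10 libraries. A library was marked when its gap to the nearest other one was large against the range of the group. Chance does this in about 1 in 20 groups of normally distributed values, and 36 groups were tested. The rate does not hold where most levels are 0. A single library with counts among zeros is always marked, as for MRP10 and MRPL49 at 5 pg. At 5 pg, replicate 2 stood apart with 34 members detected, and it was also the highest for MRPL33 (1.49 CPM), MRPL9 (7.46 CPM) and MRPL49 (2.98 CPM). MRP10 had 0.55 CPM in replicate 8 at 5 pg and 0 in the others. At 10 ng, replicate 2 was low in members detected, with 20, and high in MRPL33, with 24.1 CPM. Replicate 9 at 1 ng had a summed level of 2512 CPM, and without it the mean at 1 ng was 815 ± 182 CPM (SD, n = 7). MRP4 stood apart with 1060 CPM in replicate 9 at 5 pg, with 119 CPM in replicate 9 at 1 ng and with 11.4 CPM in replicate 5 at 10 ng.

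The libraries without an amount were above the 10 ng libraries in the summed level of the members, with 2111 CPM in H6P11, 3248 CPM in H6P12, 3874 CPM in H6P14, 4318 CPM in H6P15 and 4814 CPM in H6P16, against a highest value of 1585 CPM at 10 ng. MRPS12, at 0 in the 54 grouped libraries, had 33.2 CPM in H6P11, 33.1 CPM in H6P12, 49.6 CPM in H6P14, 21.4 CPM in H6P15 and 38.9 CPM in H6P16. MRP8 was the highest member in each of them, with 307 CPM in H6P11, 369.6 CPM in H6P12, 629 CPM in H6P14, 999 CPM in H6P15 and 758 CPM in H6P16, against at most 6.89 CPM at 10 ng. Against low input the sums were less apart. Those of H6P11, H6P12 and H6P14 lay within the range at 10 pg (833 to 4242 CPM), and those of H6P15 and H6P16 above it. MRP8 also reached 936 CPM in replicate 10 at 5 pg, where it was the highest member. These differences were not tested.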

How the results depend on the processing

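For 5 pg against 10 ng, 14 members were called lower in the main fit (7.65% of all genes). They became 2 with a filter of 5 counts in at least 50% of the libraries, with 2.98% of all genes lower. The number was 32 with DESeq2's Wald test (24.8%), 25 with the replicate block (15.7%) and 0 within libraries numbered 1 to 4 (0%). The 3 called higher (23% of all genes) became 5 with DESeq2 size factors (27.4% of all genes higher) and 1 with the library total only (5.07%). They became 0 with the 50% filter (12.7%), the replicate block (0.55%), within libraries 1 to 4 (0%) and within those above 4 (1.09%). Leaving out 1 library gave 11 to 21 lower (21 without 5 pg replicate 2 or 10) and 0 to 4 higher. The share of all genes in these fits is not given here, so that these counts do not single out the members. For MRPL27 the log2 fold change was -1.13 with DESeq2, -2.91 within libraries above 4, and between -3.18 (without 5 pg replicate 1) and 3.06 on leaving out 1 library. No member was called at 5 pg against 10 pg, but 2 were by DESeq2 (8.28% of all genes called) and 16 in 1 fit of all 6 amounts (18.6%), and at 10 pg against 20 pg each of these called 1 (2.85% and 3.37%). At 100 pg against 1 ng, 2 were called with no filter (6.52%), 1 with the replicate block (9.43%) and 7 within libraries 1 to 4 (28.2%). For 1 ng against 10 ng, 11 were lower in the main fit (15.9% of all genes). They became 7 within libraries 1 to 4 (12.5%), 0 within those above 4 (0.565%) and 0 in 1 fit of all amounts (0%). The 3 higher (20.8% of all genes) became 1 with the 50% filter (24.9% of all genes higher) and 1 with the replicate block (16.7%). They became 0 within libraries 1 to 4 (13.5%), within those above 4 (1.24%) and in 1 fit of all amounts (0%). Leaving out 1 library gave 10 to 15 lower and 1 to 3 higher, again without the share of all genes. The mean number of members detected was 20.3 at 5 pg, 25 at 10 pg, 57.2 at 1 ng and 61.2 at 10 ng with at least 1 count, 25.2 at 1 ng and 32.6 at 10 ng with at least 10 counts, 18.5 at 1 ng and 26 at 10 ng after thinning, and 9.75 at 10 pg in libraries 1 to 4. The mean summed level was 3760.3 CPM at 10 pg, 1670.3 CPM at 1 ng and 1811 CPM at 10 ng without the 10 most abundant genes in the total, 1451 CPM at 10 ng with TMM factors, 762 CPM at 20 pg in libraries 1 to 4 and 2189 CPM at 100 pg in those above 4. The causes were not tested. Over the members named as called, 658 values under an alternative kept direction and call, 94 lost the call and 3 reversed. Of these, 484, 38 and 1 came from fits that left out 1 library and share most of the data with the main fit. The other alternatives gave 174, 56 and 2. Members that an alternative filter left untested are not among these values. Equal replicate numbers were not taken as pairs, since the labels tie them to no shared source. The rule also asked for every pair's correlation of deviations to be over 0.1, which no comparison met. Such a rule can miss a source shared by only some of the numbers, and whether there is one was not tested. The lowest was between -0.07 and 0.06 in the 6 comparisons, while the median reached 0.18 at 100 pg against 1 ng and the highest 0.49 at 1 ng against 10 ng, and from 1 of 9 to 5 of 7 libraries correlated best with their own number. The values of detection and summed level by library number, and those without replicate 2 of 5 pg or 10 ng or replicate 9 of 1 ng, were chosen after seeing the data. With the floor of 3 counts, levels under 0.191 CPM at 5 pg and under 0.351 CPM at 10 ng over a whole group could not be seen.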

Other observations

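In the libraries without an amount, 12 of the 67 members were above the range of the 9 libraries at 10 ng in all 5 and none was below it in all 5, while 36.7% of all 6420 genes were above it and 4.42% below it in all 5. They were MRPL1, MRPL11, MRPL13, MRPL27 and MRPL28 of the large subunit, MRPS12, MRPS17, MRPS18, RSM7, RSM10 and RSM19 of the small subunit, and MRP8. MRPS12 was 1 of 12 genes among the 6420 listed that had 0 counts in the 54 grouped libraries and at least 5 counts in each of these 5. The difference was not tested, since no label gives the amount.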
